A study of Mus musculus with 3 samples.

Results

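The cells described here were endothelial cells rich in Vwf, Selp and Ackr1 transcripts, taken from regenerating mouse tibialis anterior muscle. A cell was a member when it had at least 500 detected genes and under 10% mitochondrial UMIs (unique molecular identifiers, the tags that mark single captured transcripts), at least 3 UMIs over Pecam1, Cdh5 and Cldn5, no Ptprc and no Pdgfra UMI, under 2 Gpihbp1 UMIs, and at least 3 UMIs over Vwf, Selp and Ackr1. This rule gave 344 cells of the 2328 endothelial cells and of the 35247 cells kept in all. The comparison class was the 1607 endothelial cells with 2 or more Gpihbp1 UMIs, called Gpihbp1-positive cells, and 377 endothelial cells fell in neither class. The members are called Vwf/Selp/Ackr1 cells throughout, because a set of them carried artery genes and a name as vein cells did not hold for all of them.

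Single-cell RNA sequencing had been performed on 3 libraries, 1 for each group, each from muscles of 3 C57BL/6J mice pooled before sequencing and collected 4 days after barium chloride injury. The groups were young PBS (mice of 3 to 4 months, vehicle-injected), old PBS (24 to 26 months, vehicle-injected) and old rMETRNL (24 to 26 months, injected in the muscle with recombinant Meteorin-like, a secreted protein). All 3 groups were injured and none carried a genetic change. With pooled mice and 1 library per group, age or treatment and library cannot be told apart, so no test was made between groups. The old PBS library is shared by the age and the treatment contrast.

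Blood vessels are lined by endothelium that differs along the tree. Capillary endothelium displays Gpihbp1, which anchors lipoprotein lipase. Post-capillary venules are the main site where leukocytes leave the blood: P-selectin (Selp) and von Willebrand factor (Vwf) are stored there in Weibel-Palade bodies and reach the surface or the blood on stimulation, E-selectin (Sele), Vcam1 and Icam1 are displayed on the surface, and Ackr1, an atypical chemokine receptor, binds and carries inflammatory chemokines without classical signalling. Arterial endothelium is known for Notch activity and for the connexins Gja4 and Gja5.

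The 3 libraries held 12168 to 14012 cell barcodes and 179295668 to 228966697 UMIs, and pairs of libraries shared 58 to 80 barcodes, at most 0.658% of the smaller library. In the order young PBS, old PBS, old rMETRNL, which is kept for every run of 3 values, members had median depths of 11376, 10221.5 and 11110.5 UMIs, against 12874, 4269 and 8630 UMIs in Gpihbp1-positive cells. The old PBS comparison class was therefore the shallowest. Doublet scoring by an automatic threshold called 0 cells in every library, so the highest scores were taken instead, and these marked 7 of 118, 5 of 104 and 3 of 122 members. All intervals given are 95% intervals that cover counting error only.

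Vwf/Selp/Ackr1 cells made up a larger share of endothelial cells in young PBS than in either old library. The share was 19.2% (118 of 616, exact binomial interval 16.1 to 22.5) in young PBS, 12.6% (104 of 828, 10.4 to 15.01) in old PBS and 13.8% (122 of 884, 11.6 to 16.2) in old rMETRNL. The young interval lay above the old PBS interval and just met that of old rMETRNL, and the intervals of the old libraries overlapped. When each cell was thinned to 2000 UMIs, 29, 145 and 128 shallower endothelial cells were left out. The shares were then 21.1%, 16.0% and 17.1%, and the young (17.9 to 24.6) and old PBS (13.3 to 18.9) intervals overlapped. Thinning also removed Gpihbp1 UMIs, so the classes were drawn anew, with 124, 109 and 129 members and 243, 310 and 350 Gpihbp1-positive cells. The young and old PBS intervals also overlapped when members had no Gpihbp1 UMI, where the young interval began at 12.2% and that of old PBS ended at 12.9%. As a share of all kept cells the members were 1.03%, 0.940% and 0.954%, while Gpihbp1-positive cells numbered 426, 555 and 626 and endothelial cells of neither class 72, 169 and 136. A share of captured cells also depends on how well each cell type came through digestion, which was not tested.

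The gate genes behaved as the rule required and are given as a description, with no test. Levels are in CPM, in which the UMIs of a gene are divided by all UMIs of the class in that library and scaled to a common depth. Selp stood at 4251, 6226 and 5333 CPM in young PBS, old PBS and old rMETRNL members, against 378, 743 and 365 CPM in Gpihbp1-positive cells. Vwf stood at 929, 1020 and 854 CPM against 79.5, 145 and 72.6 CPM. Ackr1 stood at 978.5, 1405 and 1161 CPM against 62.8, 115 and 42.0 CPM. For each of the 3 genes the lowest member library lay above the highest library of the comparison class. Gpihbp1 itself, capped by the rule, was at 17.4, 14.0 and 20.8 CPM in members and 974, 1160 and 1029 CPM in the comparison class.

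The rule without Vwf took 91, 78 and 98 cells, without Selp 116, 100 and 111, and without Ackr1 118, 104 and 121, against 118, 104 and 122 members. The levels in these overlapping sets are a description. Vwf was 1016, 1106 and 921 CPM in cells chosen by Selp and Ackr1 alone, Selp was 4426, 6301 and 5701 CPM without Selp in the gate, and Ackr1 was 978.5, 1405 and 1162 CPM without Ackr1. As a background, Vwf was found in 0.336%, 1.53% and 0.947% of fibro-adipogenic progenitors (Pdgfra-positive cells of median 22722 to 26355 UMIs) and in 4.23%, 6.30% and 6.02% of macrophages (median 14683 to 15167 UMIs), against 98.3%, 96.2% and 93.4% of members. Selp was found in 1.51%, 4.09% and 3.0% of those progenitors and in 1.32%, 3.91% and 2.70% of macrophages, against 78.8%, 78.8% and 82.0% of members. Ackr1 was found in 9.56%, 16.2% and 15.2% of the progenitors and 0.543% to 0.998% of macrophages, and the source of these UMIs was not tested. In members Ackr1 was found in 68.6%, 69.2% and 69.7% of cells.

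By position on GRCm38, the build of the deposited matrices, Selp lies on chromosome 1 at 164115264 to 164150026 on the plus strand, and Ackr1 on the same chromosome at 173331886 to 173333750 on the minus strand. Vwf lies on chromosome 6 at 125546774 to 125686679 on the plus strand, and Gpihbp1 on chromosome 15 at 75596628 to 75599481 on the plus strand. The counts are per whole gene, so no exon or untranslated region can be named as their source.

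The amount of the 3 transcripts varied widely between cells. Their sum had a median of 63.5, 76 and 71 UMIs per member in young PBS, old PBS and old rMETRNL, and ran from 3 to 317, 442 and 351 UMIs. Few cells lay at the threshold: 22 members had a sum of exactly 3 and 301 had more than 5. The 22 cells just inside had 233 CPM of Vwf, 28.6 of Selp and 8.17 of Ackr1, and the 24 cells just outside, with a sum of 2, had 166 CPM of Vwf, 19.3 of Selp and no Ackr1 UMI. On the Gpihbp1 side, 272 members had no Gpihbp1 UMI and 72 had 1, while 53 cells with 2 Gpihbp1 UMIs met the rest of the rule and were left in the comparison class.

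**Figure D1:**
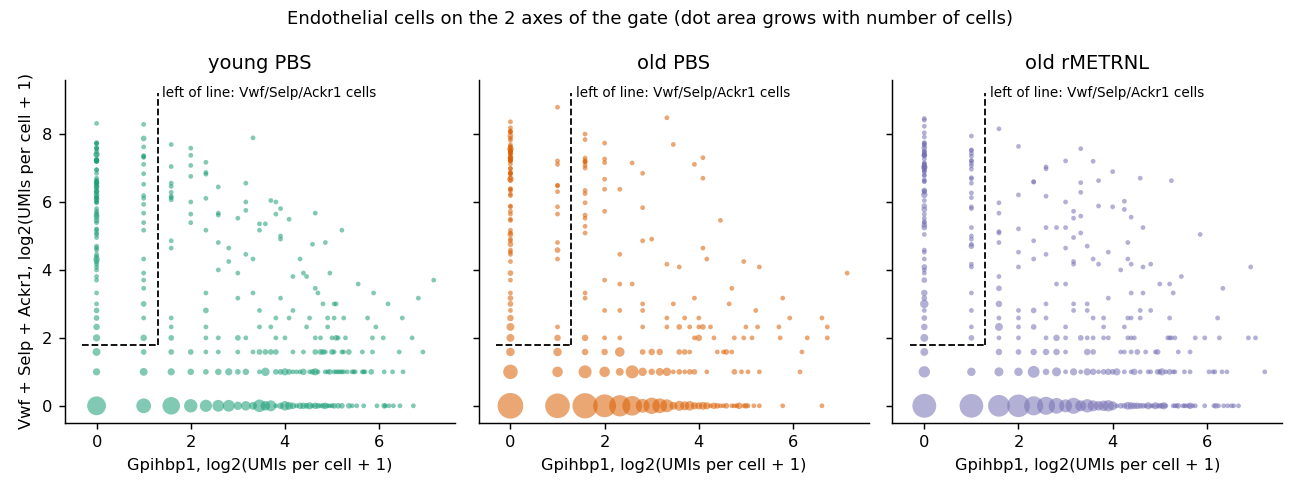
Every endothelial cell by its Gpihbp1 UMIs (x axis) and its summed Vwf, Selp and Ackr1 UMIs (y axis), both as log2(UMIs + 1), 1 panel per library, with dot area growing with the number of cells at a point and the dashed corner marking the rule. Members form a column at 0 or 1 Gpihbp1 UMI that reaches 317, 442 and 351 UMIs, and 109, 90 and 130 Gpihbp1-positive cells to the right of the line also had at least 3 UMIs over the 3 genes.

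The 3 genes did not mark 1 uniform population. All 3 were detected in 230 of 344 members (66.9%), in 79, 69 and 82 cells of the libraries. Vwf alone was detected in 68 members (19.8%; 24, 22 and 22 cells), Vwf and Selp without Ackr1 in 31, Selp alone in 7, Selp and Ackr1 in 7, and Vwf and Ackr1 in 1. No member had Ackr1 alone. Cells with all 3 genes were 67.0%, 66.3% and 67.2% of the members of the 3 libraries, and the 7 cells with Selp alone were 1, 1 and 5.

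The cells with all 3 genes carried vein genes, and the cells with Vwf alone carried artery genes. At least 3 UMIs over the vein genes Nr2f2, Lrg1, Il1r1, Aplnr and Ptgs1 were found in 229 of 230 cells with all 3 genes, in 23 of 31 with Vwf and Selp, and in 15 of 68 with Vwf alone. At least 3 UMIs over the artery genes Gja4, Gja5, Sema3g, Hey1 and Bmx were found in 5 of 230, 9 of 31 and 57 of 68, respectively. Over all members, 71 (20.6%, exact binomial interval 16.5 to 25.3) passed the artery sum and 281 (81.7%, 77.2 to 85.6) the vein sum, with 20 passing both. The artery sum was passed by 28 of 118, 19 of 104 and 24 of 122 members of young PBS, old PBS and old rMETRNL. Both sets of 5 genes were chosen after their values were seen, and for the 51 members that passed the artery sum and not the vein sum the counts go against a label as vein cells. In Gpihbp1-positive cells 235 of 1607 (14.6%) passed the artery sum and 595 (37.0%) the vein sum. The artery sum was passed by 20.9%, 9.55% and 14.9% of those cells in young PBS, old PBS and old rMETRNL, against 23.7%, 18.3% and 19.7% of members. A fixed cut of 3 UMIs is met more easily in deeper cells, and Gpihbp1-positive cells of both old libraries were shallower than members. The part of depth in these shares was not tested.

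The values of single genes, all but Sele from these sets, are a description. Gja5, the connexin-40 gene, had 258, 166 and 194 CPM in Vwf-only cells of young PBS, old PBS and old rMETRNL and no UMI in the 230 cells with all 3 genes. A count of 0 in 230 cells allows a share of up to 1.30% of cells with a UMI (3 counts of 230). Sema3g, a secreted semaphorin of arteries, had 567, 310 and 571 CPM in Vwf-only cells and likewise no UMI in cells with all 3 genes. Nr2f2, which encodes the transcription factor COUP-TFII of vein identity, ran the other way, with 276, 233 and 263 CPM in cells with all 3 genes and 12.9, 4.37 and 15.9 CPM in Vwf-only cells. Sele had 1143, 1299 and 1432 CPM in cells with all 3 genes and 6.45, 0 and 3.96 CPM in Vwf-only cells. Lrg1, a secreted glycoprotein that modulates TGF-beta signalling, was detected in all 230 cells with all 3 genes and in 20.6% of the 68 Vwf-only cells. None of the ranges of these genes overlapped between the 2 sets of cells.

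**Figure D2:**
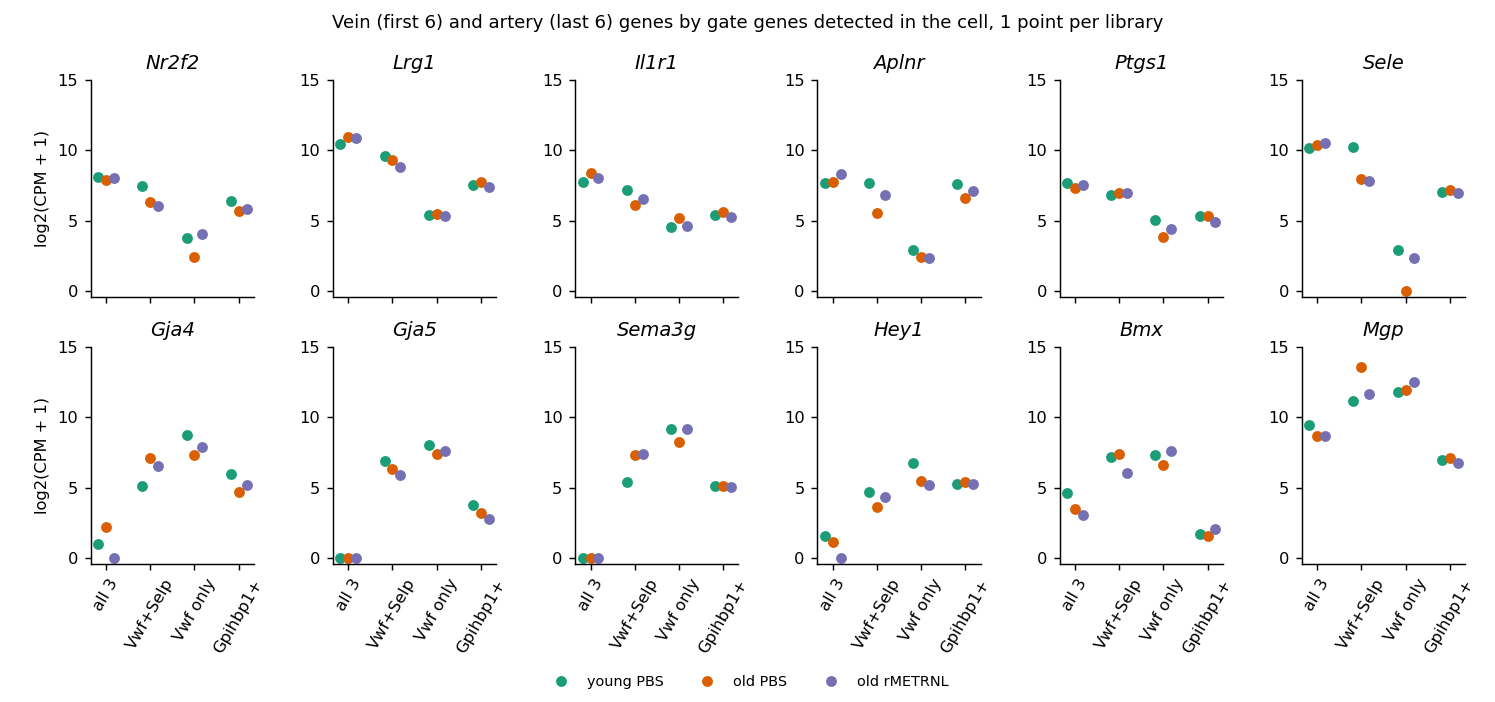
Level of 6 vein genes and 6 artery genes as log2(CPM + 1) (y axis) in members with all 3 gate genes, with Vwf and Selp, with Vwf only, and in Gpihbp1-positive cells (x axis), 1 point per library. Gja5 and Sema3g sit at 0 in cells with all 3 genes in the 3 libraries, and Nr2f2, Lrg1 and Sele are lowest in Vwf-only cells.

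Splitting the members by Ackr1 allowed a test over the libraries. Counts were summed per library for the 238 Ackr1-positive members (81, 72 and 85 cells) and the 106 Ackr1-negative ones (37, 32 and 37 cells), and edgeR's quasi-likelihood test was fitted with library as a block. Of 6486 genes outside the gate, 683 (10.5%) were higher and 658 (10.1%) lower in Ackr1-positive cells at a Benjamini-Hochberg adjusted p under 0.05. With all cells thinned to 2000 UMIs and the classes drawn anew, the counts were 40 and 49. DESeq2, without thinning, called 312 and 348. These p values ask whether a difference recurs over 3 libraries that are each a pool of mice. Median depth was 11462, 10663.5 and 10728 UMIs in Ackr1-positive and 10197, 8408.5 and 11872 UMIs in Ackr1-negative cells.

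Kcnh1, a voltage-gated potassium channel gene, had 19.8, 18.5 and 15.5 CPM in Ackr1-positive cells and no UMI in Ackr1-negative ones, at least 7.70-fold higher when a class without UMIs is set to a floor of 3 UMIs over the 3 libraries, as for every bound given here (lower limit of the exact interval 6.04). Csf3, which encodes the granulocyte growth factor G-CSF, had 1097, 1994 and 1130 CPM against 150.1, 216 and 44.3 CPM, a log2 fold change of 3.59 ± 0.26 (SE, 3 libraries, edgeR adjusted p = 7.9e-06). Hrh1, the histamine H1 receptor gene through which histamine opens venular junctions, had 19.8, 17.3 and 33.0 CPM against 2.06, 0 and 2.11 CPM (log2 fold change 3.95 ± 0.60, edgeR adjusted p = 0.000794). In all 3 genes the lowest Ackr1-positive library lay above the highest Ackr1-negative one. Gpr182, another atypical chemokine receptor, F5, coagulation factor V, Masp1, a protease of the lectin complement pathway, and Cmah, a sialic acid hydroxylase, had log2 fold changes of 4.09, 3.57, 4.60 and 3.79. The other genes of the 12 largest changes were Cadm3, Fjx1, Slco2b1, Bst1 and Sh2b2.

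The genes lowest in Ackr1-positive cells were led by artery genes. Sema3g had no UMI in Ackr1-positive cells and 372, 259 and 359 CPM in Ackr1-negative ones, at least 314.5-fold lower (lower limit of the exact interval 254.7). Gja5 was at least 142-fold lower and Atp2a3, a sarcoplasmic calcium pump gene, at least 165-fold lower. Hcn4, a pacemaker channel gene, Dkk2, a secreted Wnt antagonist, St8sia6, Nebl, Eps8l2 and Atp2b2 also had no UMI in Ackr1-positive cells, with bounds of 38.9-fold to 83.7-fold, though Hcn4 UMIs came from only 2, 1 and 3 members. Alpl, Gkn3 and Igf2 completed the 12. All 14 tested genes of the artery list were lower and none higher, with a median log2 fold change of -3.04 against -0.02 over all genes tested. Of 12 tested Notch pathway genes 8 were lower and 0 higher, among them the ligands Jag1 (35.7, 37.0 and 54.7 CPM against 261, 152 and 213 CPM, log2 fold change -2.15) and Jag2 (-3.58).

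Of 15 vein-list genes, 12 were higher and 1 lower, and the higher ones included Lrg1 (3.03 on the log2 scale), Slco2a1, a prostaglandin transporter (1.62), and Vcam1 (0.56). Icam1 was at 1011, 830 and 626 CPM against 786, 1669 and 864 CPM, its groups overlapped and it did not pass the test (edgeR adjusted p = 0.515). Among chemokine and cytokine genes Csf3, Cxcl10, Il6, Cxcl9, Cxcl16 and Cxcl1 were higher, and Cxcl2, Il33, Cxcl12 and Ccl2 were lower, of 13 tested. Cxcl16 and Il33 each lost their call in 6 alternative settings, and Il33 turned to a log2 fold change of 1.03 with a member gate of at least 5. Of 23 dissociation-stress genes 17 were lower and 4 higher. Fibroblast markers moved with this split: 7 of 8 tested were lower, and the summed level of the 10-gene list was 237, 344 and 217 CPM in Ackr1-positive against 1308, 825 and 1032 CPM in Ackr1-negative cells. Pericyte and smooth muscle markers did the same, with 5 of 7 tested lower and summed levels of 585, 1057 and 537 against 1649, 2726 and 1767 CPM over 11 genes, none of which was at 0 in either class. Macrophage markers were higher in 4 of 11 tested and lower in 1, with summed levels of 905, 647 and 724 CPM in Ackr1-positive against 434, 512 and 557 CPM in Ackr1-negative cells over 14 genes. The part of these cells' RNA in the artery-gene and cytokine differences was not tested.

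Against Gpihbp1-positive cells, more genes of leukocyte adhesion, cytokines, cytokine response and haemostasis were higher than lower in Vwf/Selp/Ackr1 cells, and more capillary, tip-cell and cell cycle genes were lower than higher. Of 10677 genes outside the gate, 1541 (14.4%) were higher and 1306 (12.2%) lower in the paired edgeR test over the 3 libraries. Without old rMETRNL these counts were 912 and 682, and DESeq2 called 1024 and 579. With all cells thinned to 2000 UMIs and the classes drawn anew, 642 were higher and 518 lower. Because a part of the members carried artery genes, each result was also computed with the 238 Ackr1-positive members alone, a setting added after the data were seen, which called 1487 genes higher and 1318 lower of 10385. Of the 1541 and 1306 calls, 1223 and 1005 were also made there.

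Among leukocyte adhesion genes, 10 of 20 tested were higher and 5 lower, with a median log2 fold change of 0.37 against -0.02 over all genes tested. With Ackr1-positive members alone 9 were higher and 7 lower (median 0.21 against -0.05). Sele stood at 867, 926 and 993 CPM in members and 128, 144 and 124 CPM in Gpihbp1-positive cells. The lowest member library lay several-fold above the highest comparison library, and the log2 fold change was 2.96 ± 0.09 (SE, 3 libraries, edgeR adjusted p = 3.75e-10). Vcam1 stood at 1770, 1361 and 1652 CPM against 292, 252 and 210.5 CPM, with a log2 fold change of 2.81 ± 0.10 (edgeR adjusted p = 1.75e-09). Icam1 was higher by 1.09 ± 0.08, Cd9 by 0.74 and Emcn, an endothelial sialomucin, by 0.58. Icam2, Cd34, Cd44, Jam3 and Mcam were the 5 lower genes. Esam, a junction adhesion molecule, was at 510, 443 and 430 CPM against 560, 521 and 496 CPM and did not pass the test.

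Cytokine and chemokine genes differed by member of the list, with 8 higher and 3 lower of 17 tested (median 0.31). With Ackr1-positive members alone 7 were higher and 5 lower (median 0.36). Csf3 stood at 789, 1482 and 774 CPM in members and 87.3, 93.3 and 35.6 CPM in Gpihbp1-positive cells, a log2 fold change of 3.99 ± 0.19 (edgeR adjusted p = 1.56e-08). Il6 stood at 719, 1259 and 907 CPM against 171, 281 and 203 CPM (2.27 ± 0.08, edgeR adjusted p = 1.35e-09). Both genes were highest in the old PBS members. Cxcl1, a neutrophil-attracting chemokine, was higher by 2.04 ± 0.09, Cxcl10 by 0.96 ± 0.08 and Cxcl9 by 0.31 ± 0.07, the latter 2 being interferon-induced attractants of T cells. Il33, Cxcl16 and Csf1 were also higher, though Csf1 lost its call in 10 alternative settings, and Ccl21a, Cxcl12 and Ccl2 were lower. Cxcl2 was at 367, 289 and 159 CPM against 252, 333 and 213 CPM with overlapping groups.

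Of 22 genes of the response to inflammatory cytokines, 17 were higher and none lower, with a median log2 fold change of 0.70. Il6st, the gp130 receptor subunit shared by the interleukin-6 family, stood at 855, 975 and 839.5 CPM against 170, 196.5 and 153 CPM (2.51 ± 0.08, edgeR adjusted p = 6.01e-10). Il1r1, Lifr and Osmr, receptors of interleukin-1, LIF and oncostatin M, were also among the 17. Cebpd, a transcription factor of the acute-phase response, was higher by 1.85 ± 0.07, Socs3, a feedback inhibitor of Stat3, by 1.15 ± 0.07, and Nfkbia, the inhibitor of NF-kappaB, by 1.04 ± 0.07. Junb and Irf1 did not pass the test. Among interferon-response genes 13 of 24 were higher, such as Gbp2 (0.90), Irgm1 (0.68) and Ifit1 (0.60), and Rsad2, Bst2 and Irf7 were lower. Of 20 MHC genes 13 were higher and none lower, such as H2-T23 at 499, 496 and 415 CPM against 321, 260 and 222 CPM (0.96 ± 0.09). The class II genes H2-Aa, H2-Eb1, H2-Ab1 and Cd74, which macrophages also express, were among the 13. H2-Aa, H2-Eb1 and Cd74 lost their call in 3 alternative settings each and H2-Ab1 in 1. In young PBS 61.5% of the Cd74 UMIs of members came from 1 cell.

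Haemostasis genes were higher in 11 of 23 and lower in 5 (median 0.51). Procr, the endothelial protein C receptor, stood at 232, 335 and 290 CPM against 83.1, 81.3 and 121 CPM (1.72 ± 0.13, edgeR adjusted p = 1.06e-06), and Entpd1, an ectoenzyme that removes ATP and ADP, at 271, 298 and 302 CPM against 117, 118 and 99.96 CPM (1.52 ± 0.10). F5, F8, F3, Ptgs1, Ptgs2, F2rl1, Pros1, Mmrn2 and Adamts1 were the other higher genes, and the lower ones included F2r, F2rl3, Plau and Anxa2. Of 19 genes for Weibel-Palade cargo and its secretion, 4 were higher and 4 lower. Edn1, endothelin-1, was higher by 1.30 ± 0.11, as were Myrip, Rab27a and Ece1, whereas Angpt2, Gal, Igfbp7 and Vamp3 were lower. The median over the list was 0.07.

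In permeability and junctions, Plvap, which forms the diaphragms of fenestrae and caveolae, stood at 1260, 1438 and 1448 CPM against 616, 491 and 513 CPM (1.5 ± 0.10, edgeR adjusted p = 3.5e-07). Ehd4 and the connexin Gja1 were higher by 1.59 and 0.90. Cav1, the caveolin coat protein, was lower by log2 -1.11 ± 0.07, with 669, 571 and 521 CPM against 1591, 1326 and 1282 CPM. Cldn5, a tight junction claudin that is part of the endothelial gate and therefore untested, was at 482, 309 and 229 CPM in members and 865, 1085 and 794 CPM in Gpihbp1-positive cells. Within members, Cldn5 was at 35.7, 8.63 and 7.22 CPM in Ackr1-positive and 1407, 1051 and 682 CPM in Ackr1-negative cells. Ackr1-positive cells thus entered the endothelial gate mainly through Pecam1 (1047, 1194 and 1098 CPM) and Cdh5 (842, 749 and 797 CPM).

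Capillary genes were lower in 15 of 17 tested (median -1.80). The lower genes included Car4, a membrane carbonic anhydrase, at 1.34, 0.878 and 2.08 CPM against 28.9, 67.8 and 36.5 CPM (-4.67 ± 0.32, edgeR adjusted p = 4.36e-07), as well as Lpl, Rgcc, Cd36, Kdr and Fabp5. Aqp1, a water channel, was the only higher one, at 2023, 2765 and 2437 CPM against 701, 1833 and 1035 CPM (1.26 ± 0.13). The fatty acid binding protein gene Fabp4 remained abundant, at 8005, 7830 and 7761 CPM against 11560, 10880 and 8903 CPM, and its difference of -0.26 ± 0.07 became 0.01 (edgeR adjusted p = 0.933) with Ackr1-positive members alone. Vein-list genes were higher in 13 of 15, led by Slco2a1 (333, 369 and 415 against 39.1, 43.5 and 43.0 CPM; 3.29 ± 0.09) and Lrg1 (1003, 1447 and 1328 against 182, 216 and 170 CPM; 2.87 ± 0.10). The vein list overlaps in kind with the genes that chose the cells. The capillary list overlaps in kind with Gpihbp1, which set the 2 classes apart, so its lower levels were partly fixed by the rule.

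The artery list turned with the choice of members. Over all members 10 of 15 artery genes were higher and 4 lower (median 1.22), and with Ackr1-positive members alone 5 were higher and 9 lower (median -1.25). Sema3g went from a log2 fold change of 1.80 to no UMI in Ackr1-positive members, at least 30.6-fold lower than in Gpihbp1-positive cells. Stmn2, a microtubule regulator, went from 0.98 to -1.25 (edgeR adjusted p = 0.00623). Mgp, a calcification inhibitor, stayed higher in both, at 3.96 and 2.19. Of 16 Notch genes, 2 were higher (Jag1 and Dll1) and 5 lower over all members, and 1 and 7 with Ackr1-positive members.

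Tip-cell and angiogenic genes were lower in 14 of 16 and higher in none (median -1.80). Pgf, placental growth factor, stood at 15.4, 9.66 and 18.02 CPM against 320, 241 and 391 CPM (-4.32 ± 0.13, edgeR adjusted p = 3.75e-10). Apln, apelin, was at 6.02, 0.878 and 6.24 CPM against 100.1, 58.4 and 135 CPM, and Esm1, endocan, at 0, 0 and 0.693 CPM against 6.54, 5.18 and 11.4 CPM. All 3 are secreted products of sprouting endothelium, and their groups did not overlap. Col4a1 and Col4a2, the main collagen chains of basement membrane, were lower by log2 -1.42 and -1.39, and Sparc by log2 -1.21 ± 0.06. Bgn and Fbln2, in contrast, were higher by 2.29 and 1.67, and matrix genes as a list divided into 12 higher and 11 lower of 27. Cell cycle genes were lower in 20 of 21 (median -1.19), with Mki67 at 38.1, 37.8 and 65.9 CPM against 132, 110.4 and 123 CPM and Top2a at 30.8, 63.2 and 85.3 CPM against 195, 124 and 140 CPM. Top2a UMIs were found in 13, 11 and 14 members, and how many of these cells were cycling was not tested.

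**Figure D3:**
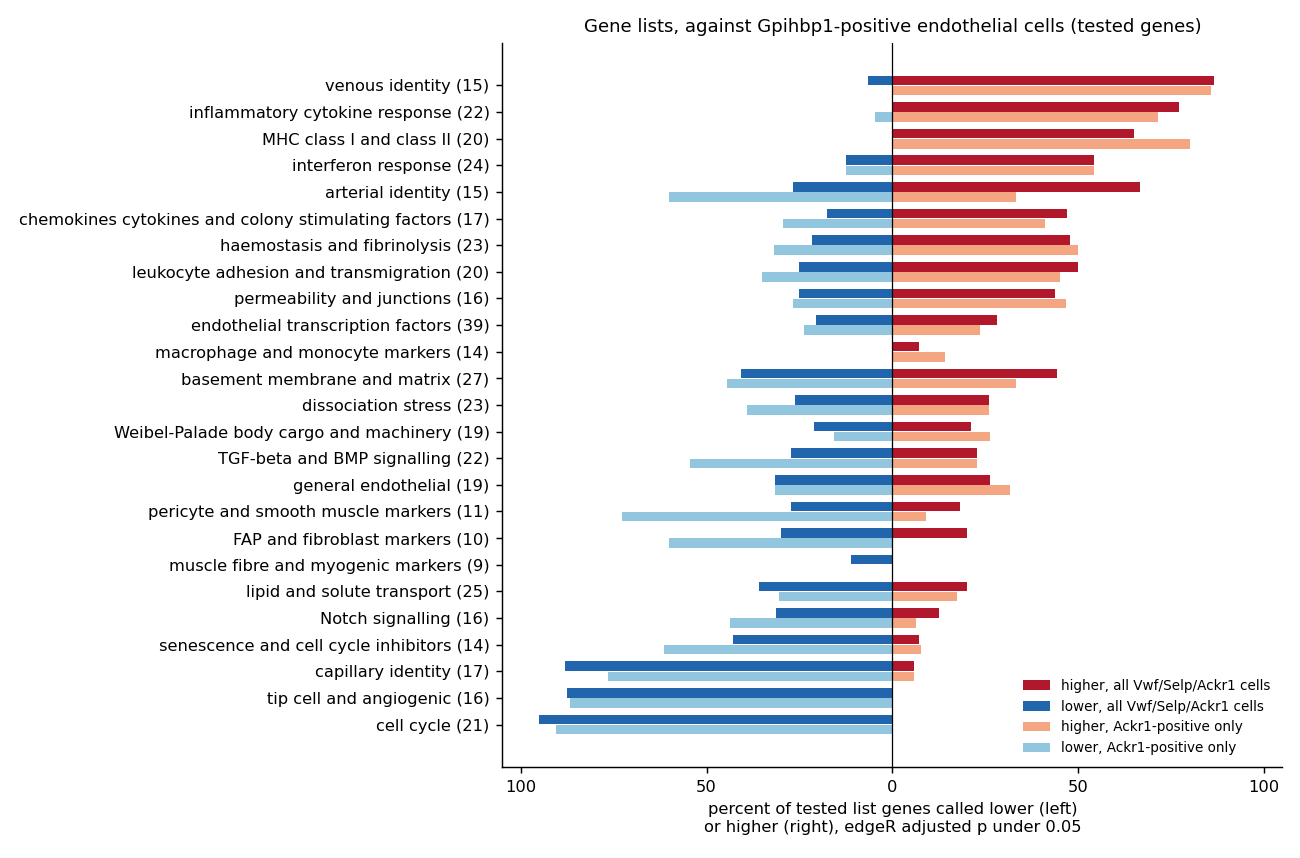
Percent of the tested genes of each list that were called lower (left) or higher (right) than in Gpihbp1-positive cells (x axis), for all Vwf/Selp/Ackr1 cells and for Ackr1-positive members alone (y axis, with the number of tested genes in parentheses). Vein and inflammatory-response genes lean right, cell cycle, tip-cell and capillary genes lean left under both choices of members, and the artery list changes side.

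The 12 largest differences in each direction were mostly genes of low level. Olr1, the receptor LOX-1 for oxidised lipoprotein, stood at 183, 241 and 225 CPM in members and 2.09, 2.93 and 1.31 CPM in Gpihbp1-positive cells (6.87 ± 0.18, edgeR adjusted p = 3.56e-10), and was at 228, 333 and 334 CPM in Ackr1-positive against 90.5, 15.2 and 0 CPM in Ackr1-negative cells. Cytl1, a secreted cytokine-like protein, stood at 157, 434.5 and 144 CPM against 0.131, 4.73 and 0.595 CPM (7.48 ± 0.26) and was higher in Ackr1-negative than in Ackr1-positive members of each library. Hcn4, Atp2b2, Sfrp5 and Dkk2 had no UMI in Ackr1-positive members. Sfrp5 rested on single cells, with all 95 young PBS UMIs and all 55 old PBS UMIs in 1 cell of each library. The other higher ones included Bmx, Gkn3, Wfdc1, Efna5 and Pthlh. On the lower side, Sez6l2 had no UMI in members and 28.3, 31.1 and 36.9 CPM in Gpihbp1-positive cells, at least 44.0-fold lower, and Ccl21a, a chemokine of lymphatic endothelium, had 1 UMI in all members. Chga, Clca2, Col28a1, Rarres1, Prnd and Pkp3 made up the rest with the genes named above.

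With Ackr1-positive members alone the 12 largest higher genes were Olr1, Cytl1, Kcnh1, Csf3, Cadm3, Adgrg6, Wipf3, F5, Rasgef1a, Masp1, Myrip and Anpep, of which Olr1 and Cytl1 were also among the 12 over all members. Adgrg6, an adhesion G protein-coupled receptor, stood at 49.6, 50.6 and 58.8 CPM against 1.70, 4.73 and 2.50 CPM, and Anpep, aminopeptidase N, at 89.3, 98.7 and 87.7 CPM against 5.50, 6.98 and 5.12 CPM. Among transcription factors 11 of 39 were higher, including Nr2f2, Foxc1, Foxc2, Gata6 and Hif1a (0.88 ± 0.08), and 8 lower, including Sox17 (-0.97 ± 0.11), Sox18 and Tcf15. Klf2, a flow-responsive factor, was at 452, 356 and 347 CPM against 414, 534 and 420 CPM over all members and did not pass the test, while with Ackr1-positive members it was lower by log2 -1.03 (edgeR adjusted p = 7.11e-05). Prox1, a factor known from lymphatic endothelium and venous valves, was at 18.1, 32.5 and 5.55 CPM against 5.76, 5.18 and 3.57 CPM (1.91 ± 0.35, edgeR adjusted p = 0.00145), while Lyve1 was at 0.669, 0 and 1.39 CPM.

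**Figure D4:**
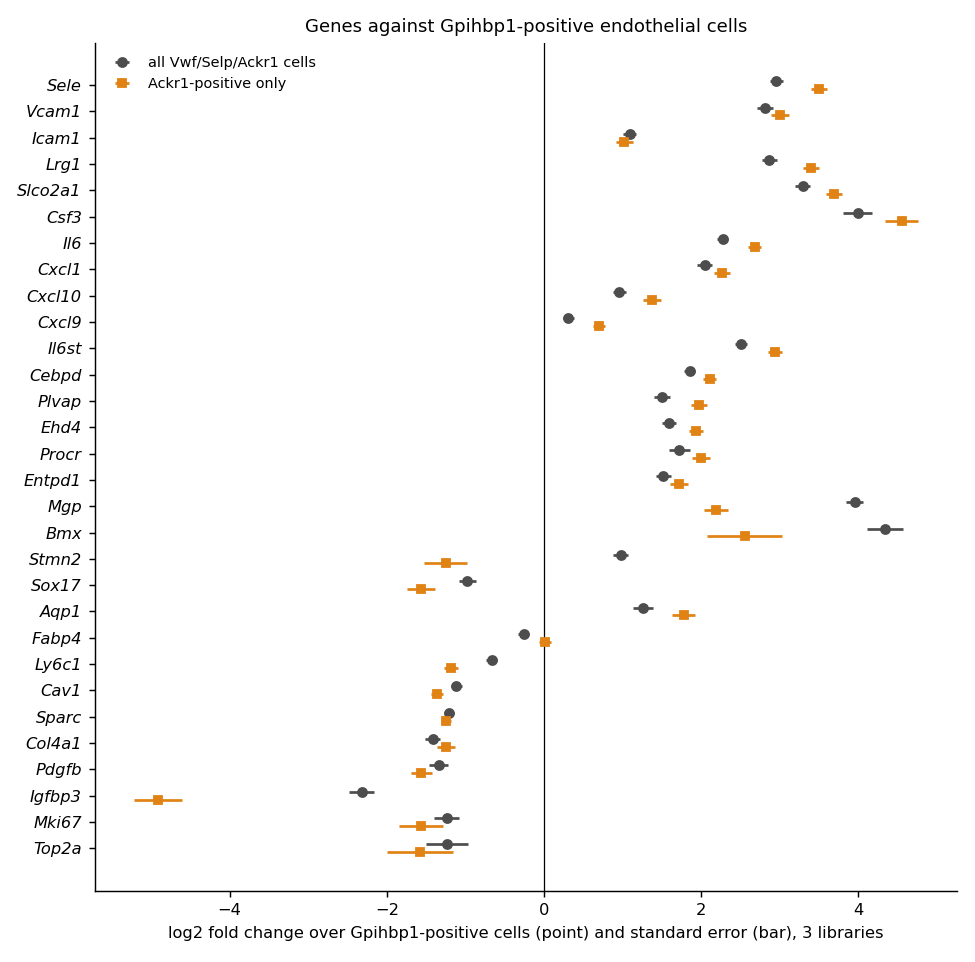
Log2 fold change over Gpihbp1-positive cells (x axis; point) with its standard error (bar) for 30 named genes (y axis), in all Vwf/Selp/Ackr1 cells and in Ackr1-positive members alone, each from 3 libraries. Sele, Lrg1, Slco2a1, Csf3 and Il6st lie farther right with Ackr1-positive members, Mgp and Bmx less far, and Stmn2 changes side.

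Markers of other cells were checked in the same comparison. Macrophage markers summed to 752, 608 and 669 CPM in members and 574, 788 and 574.5 CPM in Gpihbp1-positive cells over 14 genes, of which Cd14 was higher (2.29 ± 0.26) and none lower. Platelet markers summed to 51.5, 49.2 and 80.4 CPM against 62.3, 66.2 and 71.5 CPM over 13 genes, with Ppbp at 0, 0.878 and 0 CPM and Gp5 at 0, 1.76 and 0 CPM, whereas Pf4 was at 17.4, 12.3 and 34.7 CPM and Itga2b was higher (1.05 ± 0.20). Vwf and Selp are also platelet genes, and the part of platelet RNA in their levels was not tested. Neutrophil markers summed to at most 4.39 CPM and glial markers to at most 18.02 CPM in members. Of 11 pericyte and smooth muscle markers, 2 were higher in members (Tagln and Myh11) and 3 lower (Kcnj8, Abcc9 and Rgs5), with a median log2 fold change of -0.23, and 1 was higher and 8 lower with Ackr1-positive members alone. Tagln, a smooth muscle gene, was at 342, 518 and 520 CPM in members against 67.8, 122 and 101 CPM in Gpihbp1-positive cells, while Acta2 was at 66.3, 200.1 and 146 CPM against 94.6, 84.9 and 164 CPM and did not pass the test.

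The age contrast set old PBS members over young PBS members, as a ratio of CPM between 2 libraries with an exact conditional interval and no test. Of 5657 genes with at least 50 UMIs in both libraries together, 67 (1.18%) were at least 2-fold higher in old PBS and 115 (2.03%) at least 2-fold lower, with intervals that left out 1. Many of the extreme ratios came from 1 cell: for 13 of the 67 and 18 of the 115 genes over 50% of the UMIs in the higher library came from a single member. For 44 and 79 genes no cell gave more than 20%. Without the members of highest doublet score, 7 in young PBS and 5 in old PBS, 68 genes in place of 115 were past 2-fold lower. With TMM scaling between the 2 libraries in place of plain CPM, 83 genes were past 2-fold higher and 83 lower, so the excess of lower genes depended on the scaling.

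Selp, Ackr1 and Vwf chose the members, so their ratios within members are a description. Over all endothelial cells, a set not chosen on these genes, Selp was at 948, 1653 and 1012 CPM, Ackr1 at 199, 336 and 191 CPM and Vwf at 207, 295 and 175 CPM, highest in old PBS for all 3 genes. These levels are weighted by UMIs, and members held 15.3%, 18.1% and 13.6% of the endothelial UMIs of the 3 libraries. Within members, Selp was 1.46-fold (interval 1.42 to 1.51), Ackr1 1.44-fold (1.34 to 1.54) and Vwf 1.10-fold (1.01 to 1.19) as high in old PBS as in young PBS. Sele was 1.07-fold (0.984 to 1.16), an interval that held 1, and Vcam1 0.769-fold (0.721 to 0.819). Csf3 was 1.88-fold (1.74 to 2.02) and Il6 1.75-fold (1.62 to 1.90) higher. Of 21 inflammatory-response genes, 18 had a ratio above 1, with a median log2 ratio of 0.38 against -0.07 over all genes; in Gpihbp1-positive cells the median of the same genes was 0.42. Of these, Tnfrsf1b alone was past 2-fold. Pericyte and smooth muscle markers were above 1 in 6 of 7 in the same members, beside 2383 of all 5657 genes, with a median log2 ratio of 0.60 and of 0.50 in Gpihbp1-positive cells. Their summed level was 932 CPM in young PBS and 1538 CPM in old PBS, with Acta2 past 2-fold higher and Des past 2-fold lower. The part of these cells' RNA was not tested.

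Single heat shock and interferon genes were lower in old PBS members, but not their lists: 13 of 23 interferon-response genes were below 1 (median log2 ratio -0.09), as were 9 of 23 dissociation-stress genes, which hold Hspa1a (median 0.15). Hspa1a, an inducible heat shock protein gene, stood at 1577, 505 and 1689 CPM in young PBS, old PBS and old rMETRNL members, 0.320-fold in the age contrast (interval 0.292 to 0.351), with 1.17-fold in Gpihbp1-positive cells. The old PBS library was the low one of the 3, and UMIs were found in 87, 71 and 93 members. Its near-identical copy Hspa1b was 0.350-fold, and reads of the pair may be divided between them. Hsph1, a co-chaperone, was 0.445-fold in members and 1.04-fold in Gpihbp1-positive cells. Ifi27l2a, an interferon-induced gene, stood at 768, 244 and 314 CPM, 0.318-fold in members (0.278 to 0.362) and 0.338-fold in Gpihbp1-positive cells. Bst2, the antiviral protein tetherin, was 0.455-fold and 0.522-fold in the 2 classes. H2-Aa and H2-Eb1, class II genes, were 0.374-fold and 0.353-fold, but 67.3% and 70.7% of their young PBS UMIs came from 1 member, and without the members of highest doublet score the log2 ratios turned to 0.81 and 1.09. Of all 18 MHC genes 14 were below 1 (median log2 ratio -0.37 against -0.07 over all genes). Macrophage markers were below 1 in 8 of 11, beside 3274 of all 5657 genes, and 3 of them were past 2-fold. Their summed level was 752 CPM in young PBS and 608 CPM in old PBS, and their part was not tested.

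Sox4, a transcription factor, stood at 240, 79.0 and 261 CPM in young PBS, old PBS and old rMETRNL members, 0.330-fold with age (0.259 to 0.416) and 0.665-fold in Gpihbp1-positive cells. Angpt2, a Tie2 ligand stored in Weibel-Palade bodies, stood at 43.5, 14.0 and 41.6 CPM and was 0.323-fold (0.174 to 0.564), from 65 and 16 UMIs. Depp1, a gene induced by FOXO factors, stood at 147, 16.7 and 57.5 CPM, 0.114-fold in members and 0.132-fold in Gpihbp1-positive cells. All 3 genes were lowest in the old PBS library. Matrix genes were below 1 in 19 of 25, beside 3274 of all 5657 genes, with Col18a1 (0.448-fold), Lamb1 (0.498-fold) and Tgfbi (0.486-fold) past 2-fold. Of 8 fibroblast markers in the same members, 5 were below 1, a share near that of all genes, and 3 were past 2-fold lower. Their summed level was 586 CPM in young PBS and 483 CPM in old PBS, and their part in the matrix genes was not tested.

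Genes higher in old PBS members included Cdkn1a, the cell cycle inhibitor p21, at 491, 1003 and 620.5 CPM, 2.04-fold in members (1.86 to 2.24) and 2.27-fold in Gpihbp1-positive cells. Its list of senescence and cell cycle inhibitor genes went the other way, with 3 above 1 and 9 below (median log2 ratio -0.26 against -0.07 over all genes). Of 13 cell cycle genes 8 were above 1 and 5 below, with Cenpf, Ube2c and Top2a past 2-fold higher. Adamts4, a secreted proteoglycan-cleaving protease, stood at 283, 813 and 494 CPM, 2.87-fold (2.56 to 3.23), and Plaur, the urokinase receptor, at 195, 436 and 248 CPM, 2.24-fold (1.93 to 2.60). Both were also higher in Gpihbp1-positive cells, by 2.25-fold and 1.82-fold. Cmah stood at 32.1, 112 and 84.6 CPM, 3.50-fold (2.49 to 4.98), and was found in 26, 45 and 46 members. Of the 67 higher and 115 lower genes, 19 and 9 were past the same fold in Gpihbp1-positive cells, beside 91 (1.61%) and 27 (0.477%) of all 5657 genes, and 45 and 79 with Ackr1-positive members alone.

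Several of the 10 largest age ratios on each side rested on 1 member. Hba-a1 and Hbb-bs, haemoglobin genes with near-identical copies, had ratios of 27.1 and 14.2, and 83.9% and 85.1% of their old PBS UMIs came from 1 cell. Ccr7, a chemokine receptor gene of migrating leukocytes, had 51 UMIs in 1 young PBS cell and none in the other libraries. Ccl5 had 132 young PBS UMIs, 99.2% of them in 1 cell, Epsti1 84.3% in 1 cell and Hcn4 95.3% in 1 cell. Without the members of highest doublet score the log2 ratios of Ccl5, Hcn4 and Ttn turned to 1.27, 1.68 and 0.53. Hist1h2ap, Ubash3a and Ubd on the higher side and Ptgs2, Eno3, Ttn, Basp1 and Mest on the lower side had 26.7% to 68.6% in 1 cell, whereas Prg4, Spock2 and Mylpf were found in 18 to 37 old PBS members. Acta1 and Mylpf are muscle fibre genes, and their ratios in Gpihbp1-positive cells were 37.8 and 8.19.

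The treatment contrast divided the old rMETRNL level by the old PBS level of members, was computed in the same way and shares the old PBS library with the age contrast. Of 5537 genes, 74 (1.34%) were past 2-fold higher in old rMETRNL and 44 (0.795%) lower, of which 50 and 29 had at most 20% of their UMIs in 1 cell of the higher library, and 11 and 7 had over 50%. In Gpihbp1-positive cells 3 of the 74 and 11 of the 44 were past the same fold, beside 18 (0.325%) and 52 (0.939%) of all 5537 genes. Sele was 1.07-fold (0.989 to 1.16), Vcam1 1.21-fold (1.14 to 1.30), Selp 0.856-fold (0.829 to 0.885), Ackr1 0.826-fold (0.771 to 0.885) and Vwf 0.837-fold (0.772 to 0.908). The 3 gate genes chose these cells, and their levels over all endothelial cells are given above.

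Hspa1a was 3.35-fold higher in old rMETRNL than in old PBS members (3.06 to 3.67) and 0.992-fold (0.971 to 1.01) in Gpihbp1-positive cells. Hspa1b, Hsph1 and the mitochondrial chaperonin Hspd1 were 2.57-fold, 2.42-fold and 2.30-fold, against 0.833-fold, 1.30-fold and 1.43-fold in Gpihbp1-positive cells. Sox4 was 3.30-fold (2.62 to 4.20) against 1.38-fold, and Angpt2 2.96-fold (1.68 to 5.51) against 1.38-fold. For Hspa1a, Sox4 and Angpt2 the levels given above were lowest in old PBS, the library that enters both contrasts. A low level there lowers the age ratio and raises the treatment ratio, so no return to the young level can be read from the pair. Depp1 was 3.45-fold and 3.46-fold in the 2 classes. Akr1b8, an aldo-keto reductase, stood at 20.1, 7.90 and 36.7 CPM, 4.65-fold (2.27 to 10.7). Mcm3 and Mcm6, subunits of the replication helicase, were 2.08-fold and 2.25-fold.

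On the lower side, Sult1a1, a sulfotransferase, stood at 40.2, 95.7 and 28.4 CPM and was 0.297-fold (0.202 to 0.429) in members and 0.439-fold in Gpihbp1-positive cells. Cytl1 was 0.330-fold (0.279 to 0.389) and Bmp2, a bone morphogenetic protein, 0.219-fold (0.115 to 0.394) from 54 and 15 UMIs, with Bmp2 at 1.55-fold in Gpihbp1-positive cells. Cdkn1a was 0.618-fold, Plaur 0.569-fold, Adamts4 0.607-fold and Csf3 0.522-fold, none past 2-fold. Of the 21 inflammatory-response genes 18 had a ratio below 1, with a median log2 ratio of -0.30 against 0.06 over all genes and -0.37 for the same genes in Gpihbp1-positive cells. Of 18 MHC genes 14 were below 1, beside 2408 of all 5537 genes. Cd74 was past 2-fold at 304, 177 and 83.9 CPM in the 3 libraries, with 61.5% of its young PBS and 46.0% of its old PBS UMIs in 1 cell.

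Other cells' genes also filled the extremes of this contrast. Muscle fibre genes were past 2-fold higher in 7 of 7, with 89.6% of Acta1 UMIs, 82.0% of Mylpf UMIs and 88.9% of Tnnt3 UMIs of old rMETRNL in 1 cell. Without the members of highest doublet score the direction turned for all 7, with ratios of 0.265 for Acta1, 0.399 for Mylpf and 0.484 for Tnnt3 and of 0.290 to 0.410 for the other 4. Rgs5, a pericyte gene, was 0.244-fold over all members and 0.0354-fold with Ackr1-positive members alone, from 13 and 15 members with a UMI in the 2 libraries. Hist1h1b, Apod, Tgfb2, Mest and Peg3 on the higher side had 27.7% to 81.2% of their old rMETRNL UMIs in 1 cell, and Apod and Tgfb2 turned to log2 ratios of -1.48 and -0.26 with Ackr1-positive members alone, and Ubash3a, Gpx3 and Rrad on the lower side 40.2% to 68.6% of their old PBS UMIs. Gstt1, a glutathione transferase gene, was found in 23 old PBS and 15 old rMETRNL members and was 0.329-fold (0.167 to 0.616). Cd14, a gene of the macrophage list, was 2.31-fold higher and was spread over 32 old PBS and 48 old rMETRNL members. Of its old rMETRNL UMIs 17.3% came from 1 cell, and it was 2.37-fold without the members of highest doublet score. The source of its UMIs was not tested. Of 10 macrophage markers 4 were above 1 and 6 below, with a median log2 ratio of -0.13 against 0.06 over all genes. The platelet chemokine gene Pf4 was 2.82-fold higher, at 12.3 and 34.7 CPM.

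**Figure D5:**
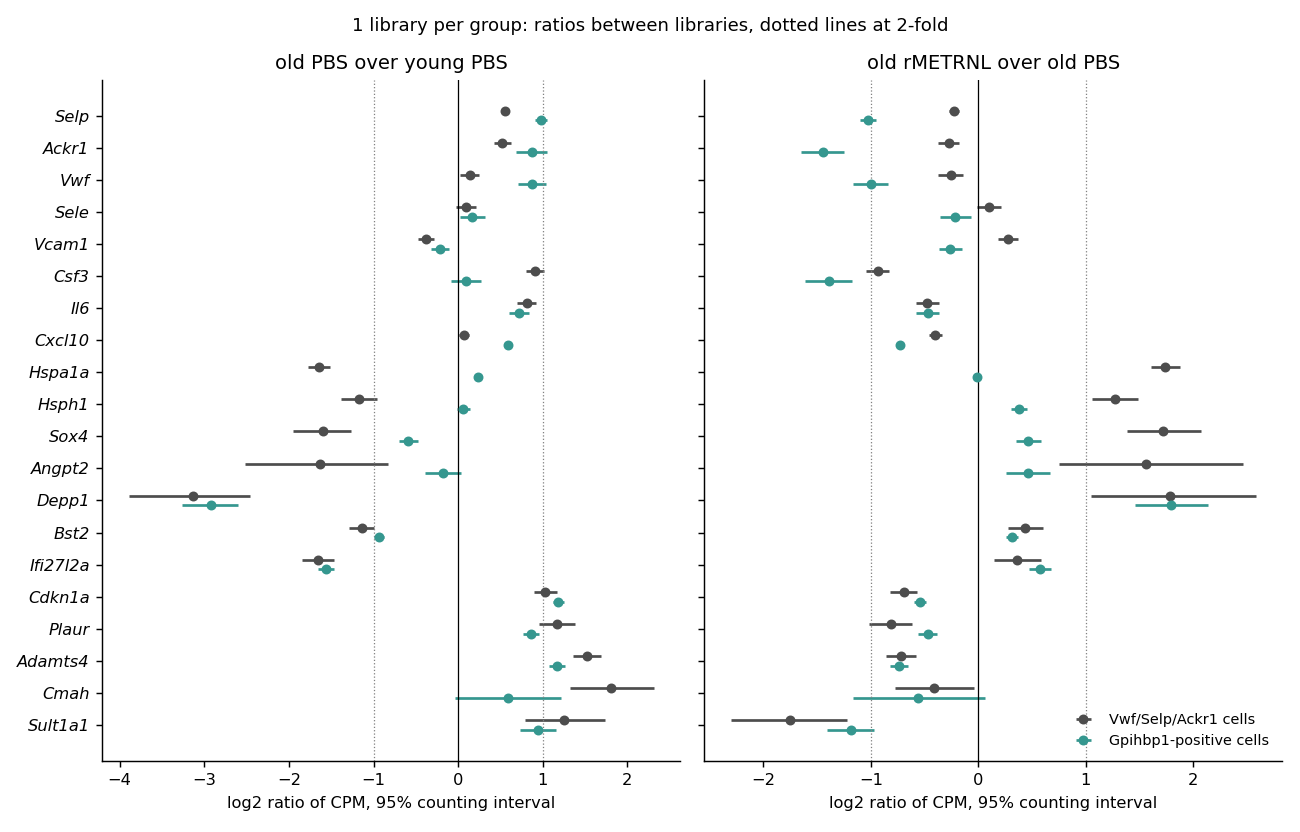
Log2 ratio of CPM between libraries (x axis) with its 95% counting interval for 20 genes (y axis), in Vwf/Selp/Ackr1 cells and in Gpihbp1-positive cells, for old PBS over young PBS (left) and old rMETRNL over old PBS (right), with dotted lines at 2-fold. Hspa1a lies at 0.320-fold and 3.35-fold in members and close to 1 in Gpihbp1-positive cells, while Ifi27l2a and Cdkn1a lie close together in the 2 classes.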

How the data were processed

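Cells had been captured by droplet single-cell RNA sequencing. The authors deposited 3 count matrices of UMIs per gene and cell barcode, made with Cell Ranger 5.0.0 per the file headers, while the submitters' notes list versions 5.0.0 and 3.1.0 and the build mm10. No normalization had been applied. The counts were used as deposited, the class was cut from raw UMIs as given above, and counts were summed per library and class. Classes were compared with edgeR 4.0.16 (TMM scaling, low-count filter, quasi-likelihood test, library as a block, Benjamini-Hochberg adjustment over all tested genes outside the 9 gate genes), with DESeq2 1.42.0 as an alternative. The block is the library, since both classes come from the same pooled muscles. Library contrasts within members used CPM ratios with exact conditional 95% intervals, for genes of at least 50 UMIs over the 2 libraries, past 2-fold when the interval left out 1. Doublet scores came from Scrublet in scanpy 1.11.5. Genes were named as the 12 (classes) or 10 (libraries) largest changes in each direction and up to 6 of the most abundant genes of each list, and others were added after their values were seen. The members, the gene lists and the rule were chosen with earlier results of these data known. Replicate animals were pooled before sequencing, so p-values measure the spread between 3 libraries of different groups. Hspa1a and Hspa1b, Hba-a1 and Hba-a2, and Hbb-bs and Hbb-bt are near-identical copies whose counts are uncertain. Some genes are not reported here.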

Additional observations from a re-analysis of the deposited data

Results flagged for a closer look

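Of the 10 largest ratios in each direction of both contrasts, 10 lay on opposite sides of 1 in Vwf/Selp/Ackr1 cells and in Gpihbp1-positive cells, with intervals that left out 1 in both, and the difference between the classes was not tested in any of them. In the age contrast, Hba-a1 was 27.1-fold in members and 0.190-fold in Gpihbp1-positive cells, and Hbb-bs was 14.2-fold and 0.278-fold. Over 80% of the old PBS UMIs of both haemoglobin genes lay in 1 member. Ccl5, a chemokine of T cells and natural killer cells, was 0.0199-fold in members and 5.82-fold in Gpihbp1-positive cells, with 99.2% of its 132 young PBS UMIs in 1 cell, and 2.41-fold in members without those of highest doublet score. Eno3, the muscle enolase, was 0.0787-fold and 2.63-fold.

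In the treatment contrast, Apod was 5.74-fold in members and 0.606-fold in Gpihbp1-positive cells, and Tnnt3, a fast muscle troponin, was 3.42-fold and 0.301-fold. In both genes over 80% of the old rMETRNL UMIs lay in 1 member. Without the members of highest doublet score Tnnt3 was 0.484-fold (0.223 to 1.01), on the same side as in Gpihbp1-positive cells, and with Ackr1-positive members alone Apod was 0.359-fold. Hba-a1 was 0.0382-fold and 2.03-fold, Hbb-bs 0.0952-fold and 2.29-fold, and Ubash3a, a T cell regulator gene found in 3 old PBS members, 0.0827-fold and 3.99-fold. Bmp2 was 0.219-fold and 1.55-fold, and its 54 old PBS UMIs were spread over 19 members, at most 11.1% in 1 cell. With Ackr1-positive members alone the Bmp2 ratio was 0.418-fold, with an interval of 0.143 to 1.11 that held 1.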

How the results depend on the processing

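Of the alternative fold changes of named genes between classes, 2681 stayed on the same side of the threshold in the same direction, 103 lost and 8 gained a call, and 10 reversed. Against Gpihbp1-positive cells, Vamp3 and Csf1 lost their call in 10 alternatives each, Fabp4 and Anxa2 in 8, and Dll1 and Irf7 in 7. Between the Ackr1 classes, Cxcl16 and Il33 lost theirs in 6, Cxcl1 in 4, Ccl2 in 2, and Vcam1, Cxcl10 and Il6 in 1. With Ackr1-positive members alone, log2 fold changes against Gpihbp1-positive cells turned to -1.31 for Cxcl2, 0.012 for Fabp4, -9.99 for Sema3g, -1.25 for Stmn2 and -2.34 for Acta2. Thinning turned Cxcl2 to -0.87, Irf1 to -0.73 and Stmn2 to -0.10, and between the Ackr1 classes Cxcl9 to -0.41, while a member gate of at least 5 turned Il33 there to 1.03. Counts of calls moved. After thinning to 2000 UMIs, 642 genes were higher and 518 lower than in Gpihbp1-positive cells, and 40 and 49 between Ackr1-positive and Ackr1-negative members. DESeq2 called 1024, 579, 312 and 348 genes in these 4 counts. Without the replicate block (library), 1048 genes were higher and 833 lower than in Gpihbp1-positive cells, and 593 and 599 between the Ackr1 classes. Leaving out each library gave 912 to 1626 higher and 682 to 1370 lower genes, lowest without old rMETRNL in both cases, and 550 to 782 and 570 to 765 between the Ackr1 classes. Past 2-fold with age were 23 higher and 19 lower after thinning, 156 and 301 from 20 UMIs, 32 and 39 from 100 UMIs, and 68 lower without doublet calls. With treatment these were 12 and 10, 208 and 128, and 23 and 14. TMM scaling between the 2 libraries gave 83 higher and 83 lower with age, and 66 and 50 with treatment. The share of members was 14.9% in young PBS and 10.4% in old rMETRNL without any Gpihbp1 UMI, and 16.0% in old PBS and 17.1% in old rMETRNL after thinning. Of the alternative values of ratios between libraries, 949 stayed within their error, 149 moved and 20 reversed. Without doublet calls the age log2 ratios turned for Ccl5 (1.27), Ttn (0.53), Hcn4 (1.68), H2-Aa (0.81) and H2-Eb1 (1.09), and the treatment log2 ratios for Tnnt3 (-1.05), Acta1 (-1.92) and Mylpf (-1.32). Thinning turned Ttn and Basp1 (both 0.19), H2-Aa (0.28) and H2-Eb1 (1.63) with age, and Peg3 (-0.83) and Rrad (0.76) with treatment. Apod turned to -1.92 with an endothelial gate of at least 2 UMIs, -1.48 with Ackr1-positive members alone and -1.46 with members that had all 3 genes, Tgfb2 to -0.26 and -0.24 in the latter pair, and Peg3 to -0.10 with all 3 genes. The causes were not tested. With 104 to 122 members per library, genes under 50 UMIs were not compared between libraries.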
